A study of Mus musculus with 61 samples.

Results

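The 36 genes described here are mouse genes of the endoplasmic reticulum (ER) stress and heat shock responses, taken from the 18754 genes of the deposited liver table by their symbols and not by their values. Each symbol was found once, and all 36 passed the filter on low counts that left 16165 genes for testing. They are 15 chaperones and folding enzymes of the ER, 4 genes of ER-associated degradation, 4 sensors and transcription factors of the unfolded protein response, 6 genes of the integrated stress response and 7 heat shock proteins of the cytosol.

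Liver RNA was sequenced from mice of the 8 inbred strains from which the Diversity Outbred stock descends. All mice had received a high-fat, high-sugar diet (45 percent fat), so the strains share that diet and no other diet is compared. There were 8 libraries each of strain-129, NOD, NZO, PWK and WSB, 7 each of B6 and Cast, and 6 of AJ, named as in the labels, which give the first of these by its number alone. The labels give no sex, age or time of collection, and nothing in them states that each library is from its own mouse, so p-values measure the spread between libraries, which may be partly technical.

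Totals ran between 19.98 and 69.17 M reads, with a median of 30.42 M. The 8 hepatocyte markers, Alb among them, summed to at least 23529 CPM in every library, where CPM are reads of a gene scaled to one common library size. Xist, an RNA made from an inactivated X chromosome, was above 100 CPM in 3 or 4 libraries of each strain and at 8.89 CPM or less in the others. In bulk tissue, fewer cells of a type and less RNA per cell cannot be told apart. The libraries numbered 5 and 6 of Cast and number 7 of strain-129 stood apart in these genes. Cast 5 had the highest level of all 60 libraries in 14 of the 36 genes, Cast 6 in 5 and library 7 of strain-129 in 3, as many as WSB 5 and WSB 8. Results that rest on them are given with and without them.

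As background, secreted and membrane proteins fold in the ER, and the liver secretes much of the protein of the blood. When unfolded protein builds up there, the sensors IRE1 (encoded by Ern1), PERK (Eif2ak3) and ATF6 raise transcription of chaperones and degradation genes, through spliced XBP1 and cleaved ATF6, and PERK slows translation while favouring that of ATF4. ATF4 also serves other kinases of the integrated stress response, among them a sensor of amino acid shortage. The heat shock response of the cytosol is a separate programme, driven by the factor HSF1.

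Several of these genes are known for the ER stress element, the letters CCAAT, 9 bases of any kind and CCACG on either strand, to which NF-Y and ATF6 bind. The element was first described in promoters of genes such as Hspa5 and Hsp90b1, so its presence there is no finding. In the 250 bases before each gene's start in the RefSeq promoter table (GRCm38.p6), it was found in 35 of 27025 genes (0.130%), and 8 of those 35 were among the 31 genes described here that had an entry. It lay before Hspa5, Hsp90b1, Calr, Canx, Pdia6, Dnajc3, Creld2 and Syvn1. The second form, ATTGG, 1 base of any kind and CCACG, was found in 10 genes, one of them Herpud1. The letters TGATGNAAT, known for ATF4, and the letters GAA, TTC and GAA with 2 bases of any kind between each, known for heat shock factors, were in none of the 31 windows, against 0.910% and 0.514% of all genes, which says only that these letters are not in these windows. Entries for Atf6, Hsp90aa1, Hspa8, Hyou1 and Manf were not matched. The stretches below are printed for 5 of these genes whose levels are described in Cast, WSB or NZO, and capitals mark the element on the strand of the gene. They span chr2:34772020-34772048 for Hspa5 and chr15:88819490-88819568 for Creld2 on the plus strand, chr10:86705510-86705686 for Hsp90b1 and chr8:84847045-84847123 for Calr on the minus strand, and chr8:94386347-94386417 for Herpud1 on the plus strand. For Hsp90b1, Calr, Creld2 and Herpud1 they lie outside the span of the gene in the deposited table. For Hspa5 the element lies inside that span, which begins at chr2:34771970 there, before the RefSeq start, and only 29 bases around it are shown.
Hspa5: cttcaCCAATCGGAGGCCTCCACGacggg
Hsp90b1: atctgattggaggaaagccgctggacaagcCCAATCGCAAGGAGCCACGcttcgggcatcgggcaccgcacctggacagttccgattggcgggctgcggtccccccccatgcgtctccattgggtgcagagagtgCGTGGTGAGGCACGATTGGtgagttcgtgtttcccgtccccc
Calr: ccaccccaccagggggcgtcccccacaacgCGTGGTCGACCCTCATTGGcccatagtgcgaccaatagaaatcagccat
Creld2: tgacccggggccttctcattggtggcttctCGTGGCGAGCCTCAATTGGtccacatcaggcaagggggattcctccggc
Herpud1: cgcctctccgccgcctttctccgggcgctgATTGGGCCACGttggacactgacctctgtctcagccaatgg
Hsp90b1 holds 2 copies, one on each strand. Each copy of the first form has CCAAT at one end and CCACG at the other, read on its own strand, while the letters between them differ from gene to gene.

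Strain differences were tested with edgeR's quasi-likelihood F test over all 16165 genes, with p-values adjusted by the Benjamini-Hochberg method and a threshold of 0.05, and a gene past it is described as called. Among the 8 strains, 31 of the 36 genes were called, against a background of 89.8% of all genes tested, a share close to it. All 7 heat shock genes, all 6 genes of the integrated stress response and all 4 sensors and factors were called, as were 12 of 15 ER chaperones and 2 of 4 degradation genes. The 5 that were not called were Hspa5 (adjusted p = 0.104), Pdia4 (0.233), P4hb (0.0627), Syvn1 (0.234) and Sel1l (0.324). For no gene of the 36 did the libraries of a strain lie entirely above or below those of all other strains. The share of all genes for which they do was not computed, so nothing is read from this.

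Each strain was then set against the unweighted mean of the other 7, and fold changes below are these log2 values with their standard error unless a pair is named. The count of genes called higher was 1 of 36 in strain-129 (background of all genes 13.7%), 1 in AJ (13.1%), 3 in B6 (19.4%), 17 in Cast (30.8%), 3 in NOD (16.7%), 2 in NZO (26.7%), 4 in PWK (22.5%) and 17 in WSB (22.6%). Called lower were none in strain-129 (10.9%), 4 in AJ (11%), 5 in B6 (14.7%), 4 in Cast (28.8%), 2 in NOD (11.6%) and 2 in WSB (22.4%), while NZO had 13 (19.5%) and PWK 5 (22.7%). At an unadjusted p under 0.05, strain-129 had 3 genes higher and 2 lower, and with DESeq2 it had 1 and 1. Cast and WSB held most of the higher calls, and NZO had more lower calls than any other strain. With no scaling beyond library totals, the counts of higher and lower calls were 13 and 6 in WSB, and 4 and 3 in PWK. The 17 of Cast and of WSB are different mixtures of roles, as the map of fold changes shows.

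**Figure D1:**
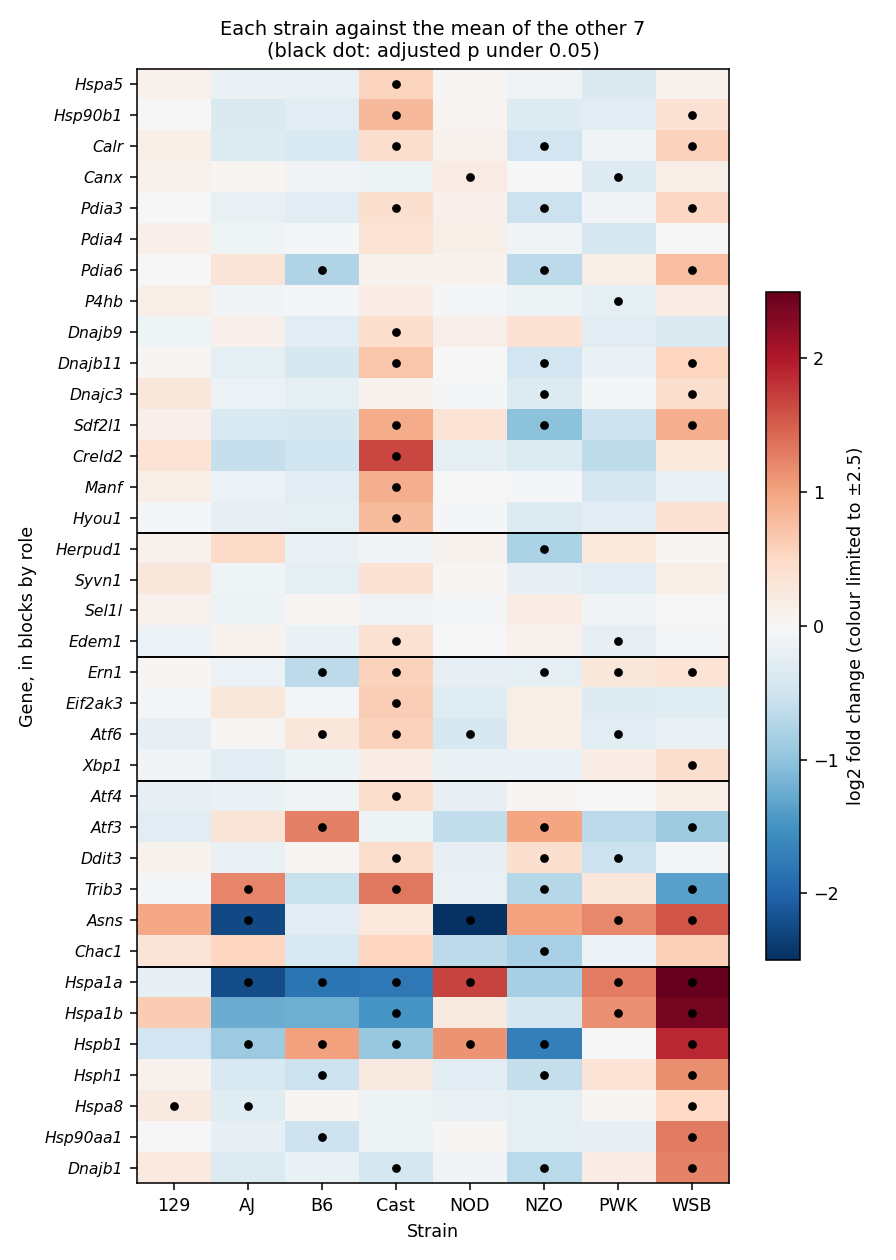
Log2 fold change of each strain (columns) over the mean of the other 7, for the 36 genes (rows, in blocks by role), with a black dot where the adjusted p was under 0.05. The WSB column is red through the heat shock block at the foot, the Cast column through the ER chaperones at the head, and the NZO column is mostly blue, with 13 genes called lower.

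WSB stood highest for the whole cytosolic heat shock group. All 7 members were called higher there, with a median log2 fold change of 1.301 beside -0.02 over all genes tested, and the order by size was Hspa1a, Hspa1b, Hspb1, Hsp90aa1, Dnajb1, Hsph1 and Hspa8. The group holds the inducible HSP70 proteins (Hspa1a and Hspa1b), the constitutive HSP70 (Hspa8), the large HSP110 cochaperone (Hsph1), the inducible cytosolic HSP90 (Hsp90aa1), the HSP40 cochaperone Dnajb1 and the small heat shock protein Hspb1. In the other strains, members were called lower in AJ (3), B6 (3), Cast (4) and NZO (3), and higher in B6 (1), NOD (2), PWK (2) and strain-129 (1).

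Hspa1a ranged between 18.9 and 152 CPM in WSB libraries, with a median of 71.8 CPM. The medians of the other strains lay between 1.17 CPM in AJ and 17.2 CPM in PWK. Its log2 fold change in WSB was 3.90 ± 0.34 (SE, adjusted p = 3.63e-14, all 8 libraries above the mean of the others). By mean log2 level, the order was 71.97 ± 44.2 CPM in WSB (SD), 18.9 ± 16.2 in NOD, 14.6 ± 10.2 in PWK, 4.08 ± 2.21 in NZO, 5.91 ± 9.49 in strain-129, 2.21 ± 1.05 in B6, 2.31 ± 1.62 in Cast and 1.76 ± 1.98 in AJ. Of the 7 steps between neighbours in that order, WSB over NOD (adjusted p = 0.00740) and PWK over NZO (0.00850) were called and the others were not. Hspa1a was also called higher in NOD (1.70 ± 0.39) and PWK (1.28 ± 0.40), and lower in AJ (-2.21 ± 0.62), B6 (-1.83 ± 0.56) and Cast (-1.79 ± 0.56). Without Cast 5 and Cast 6 the Cast value was -1.45 and not called (adjusted p = 0.0503), and that of Hspa1b was -1.30, against -1.48 with all 7, and not called either (0.0909). The ranges in WSB, NOD and PWK overlap, since the lowest WSB library lies below the highest of NOD at 43.2 CPM and of PWK at 28.7 CPM.

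In 4 of the 8 strains, NOD, NZO, PWK and WSB, the Hspa1a levels of low and high Xist libraries did not overlap. They overlapped in strain-129, AJ, B6 and Cast, and in B6 the medians were 2.13 CPM at low Xist and 2.20 CPM at high Xist. In NOD, the 4 libraries of low Xist had 25.7 to 43.2 CPM of Hspa1a, against 2.31 to 6.64 CPM in the 4 of high Xist. In WSB, the 4 libraries of low Xist had 85.4 to 152 CPM, against 18.9 to 58.1 CPM in the 4 of high Xist. The split was not particular to Hspa1a. It was also seen for Hspa1b in AJ, NOD, NZO, PWK and WSB, and for Hspa5 in strain-129, NOD, NZO and PWK. In NOD every ER chaperone but Dnajb9 was split in this way, while in WSB all of them overlapped. The share of all genes split in this way was not computed, so the split is not read as a trait of these genes. The labels give no sex, so this split is one of the data and was not tested. With Xist as a covariate the call of Hspa1a in WSB was unchanged.

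Hspa1b, which lies beside Hspa1a on chromosome 17 (chr17:34956436-34959238 and chr17:34969190-34972156, both on the minus strand), encodes nearly the same protein, so reads could be divided between the pair and single values are uncertain. Hspa1b had 41.4 to 287 CPM in WSB, with a median of 151 CPM, and a log2 fold change of 2.39 ± 0.39 (adjusted p = 9.90e-07). By mean log2 level its order was 143 ± 82.1 CPM in WSB, 67.2 ± 50.7 in PWK, 38.4 ± 31.8 in NOD, 25.8 ± 14.7 in NZO, 49.2 ± 89.5 in strain-129, 15.9 ± 2.84 in B6, 13.7 ± 9.96 in Cast and 15.8 ± 17.2 in AJ, and no step between neighbours was called. The mean of strain-129 rests on library 7, at 270.02 CPM, where the median of that strain was 19.7 CPM. The sum of both genes, which does not depend on how their reads were divided, was 60.2 to 439 CPM in WSB, with a median of 223 CPM, against strain medians of 9.11 CPM in AJ to 88.7 CPM in PWK. The ratio of Hspa1b to Hspa1a had a median of 2.02 in WSB and 2.04 in NOD, against 4.70 to 9.28 in the other strains.

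Hspb1 had 13.8 to 51.2 CPM in WSB, with a median of 34.6 CPM, and was called higher by 1.88 ± 0.20. It was called lower in NZO by -1.72 ± 0.27, where its 8 libraries held 2.83 to 5.34 CPM, all below the lowest WSB library. It was also called higher in B6 (1.03 ± 0.22) and NOD (1.13 ± 0.21), and lower in AJ (-0.90 ± 0.28) and Cast (-0.95 ± 0.27), so that 6 strains were called. Hsp90aa1 was 504 to 1079 CPM in WSB, with a median of 595 CPM, against a highest strain median of 314 CPM elsewhere, in NOD, and its log2 fold change was 1.301 ± 0.14. Only single libraries of other strains, Cast 5 at 618 CPM and library 7 of strain-129 at 583 CPM, reached into the WSB range. Dnajb1 had 40.6 to 91.8 CPM in WSB, with a median of 58.7 CPM and a log2 fold change of 1.24 ± 0.13. Hsph1 had a mean of 221 ± 57.4 CPM there and a log2 fold change of 1.17 ± 0.16.

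In tests of pairs of strains, in which 14.4% to 59.0% of all genes were called over the 28 pairs, WSB was higher than each of the 7 others for Hspa1a, Hsph1, Hsp90aa1 and Dnajb1, with adjusted p no larger than 0.00740, 0.00658, 1.66e-05 and 0.000245 in that order. For Hspa1b, Hspb1 and Hspa8 it was higher than 6 of the 7, and the missing partner was the strain next in level, PWK for Hspa1b (adjusted p = 0.143), NOD for Hspb1 (0.0799) and strain-129 for Hspa8 (0.140). Hspa8 had the smallest fold change of the group in WSB, 0.50 ± 0.09, at 1659.6 ± 246 CPM. It was the only member called higher in strain-129 (0.23 ± 0.09, adjusted p = 0.0488), a call lost without library 7 of strain-129 (0.14, adjusted p = 0.291). That library had the highest Hspa8 level of its strain, so the loss was partly set by leaving it out.

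**Figure D2:**
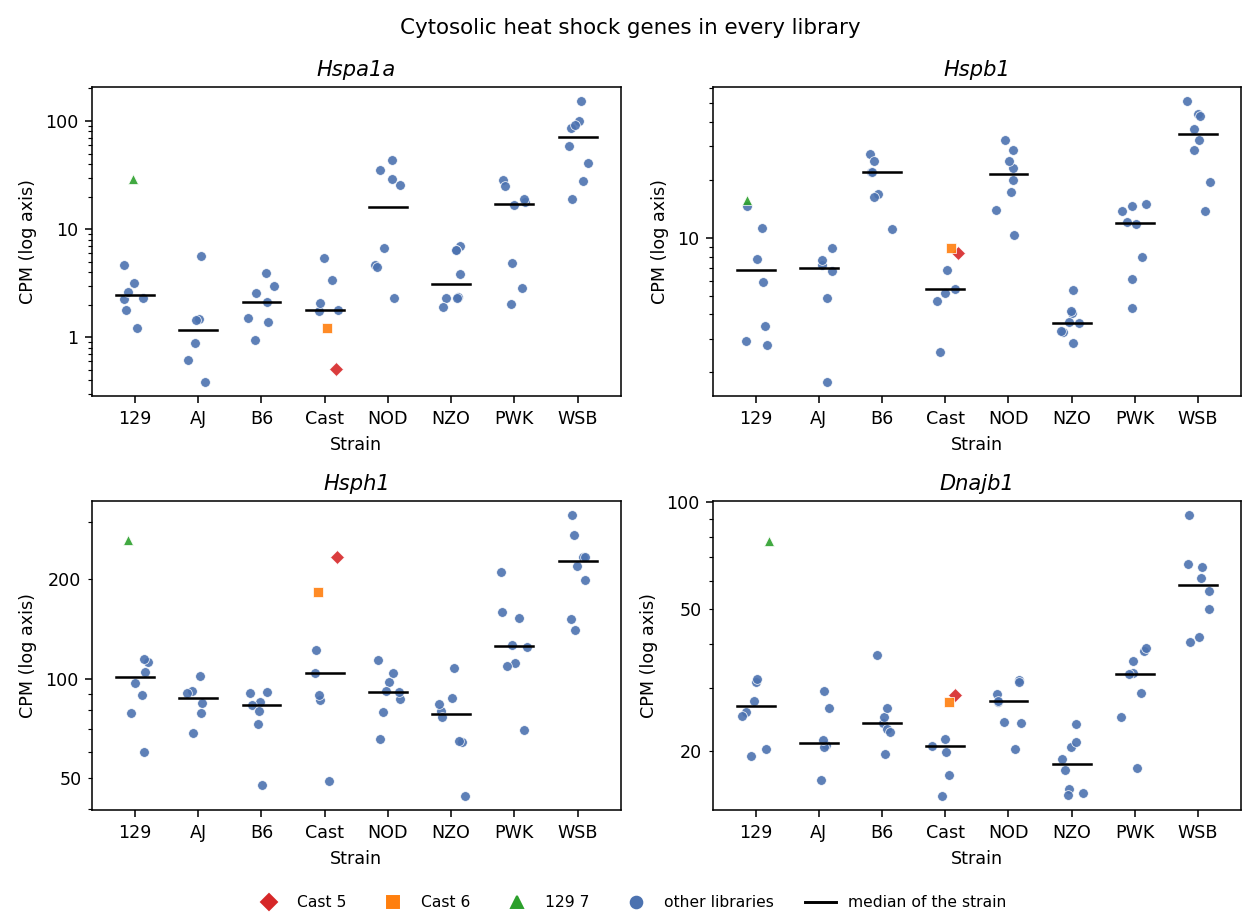
CPM on a log axis of 4 heat shock genes in every library, by strain, with a line at the median of the strain and the libraries Cast 5, Cast 6 and library 7 of strain-129 marked. WSB has the highest median for all 4 genes, library 7 of strain-129 lies inside the WSB range for each of them, and NOD and PWK spread over low and high levels of Hspa1a.

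Other heat shock and cytosolic chaperone genes were counted from a further list of 35. In WSB, 25 were called higher and 4 lower (background of all genes 22.6% and 22.4%), with a median log2 fold change of 0.32. The largest changes were in the small heat shock proteins Cryab, which was lower (-1.63 ± 0.24), and Hspb6, which was higher (0.87 ± 0.14), and in the HSP70 gene Hspa2, which was lower (-0.83 ± 0.22). Among those higher were also Ahsa1, an activator of HSP90 (0.75 ± 0.07), and Hsp90ab1, the constitutive HSP90 (0.72 ± 0.07, with 1474 ± 209 CPM), both chosen after their values were seen. In NZO, 3 were higher and 11 lower (background 26.7% and 19.5%), and in Cast 11 higher and 7 lower (30.8% and 28.8%). The counts in Cast were thus close to or below the background. Cirbp and Rbm3, RNA-binding proteins that cold induces, were both called lower in WSB, by -0.91 ± 0.11 and -0.64 ± 0.21. Of the 15 immediate early genes, 2 were higher and 2 lower in WSB, where the background was 22.6% and 22.4%.

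WSB was also higher in part of the ER chaperones. The 7 called of 15 were Sdf2l1 (0.91 ± 0.30), Pdia6 (0.75 ± 0.15), Calr (0.57 ± 0.14), Dnajb11 (0.54 ± 0.15), Pdia3 (0.52 ± 0.14), Dnajc3 (0.40 ± 0.11) and Hsp90b1 (0.37 ± 0.15), and none was called lower. Pdia6, a protein disulfide isomerase, had 283 to 559 CPM in WSB, with a median of 518 CPM, all 8 libraries above the mean of the other strains. Calr, the lectin chaperone calreticulin, had 551 to 1336 CPM there, with a median of 1149 CPM. Hspa5 was 931 ± 235 CPM in WSB and was not called. When Cast 5 and Cast 6 were left out of the comparison, which lowers the mean of the other strains, 10 of the 15 were called higher in WSB, with Canx, P4hb and Hyou1 joining at 0.18 to 0.47 (background 23.8%).

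Among the sensors, Ern1 (0.34 ± 0.09) and Xbp1 (0.41 ± 0.14) were called higher in WSB. Library WSB 6, at 384 CPM of Xbp1, stood apart from the others of its strain, which held 119.6 to 204 CPM. None of the 4 degradation genes was called in WSB. In the further list of 52 ER folding, translocation and degradation genes with a row, 15 were higher and 9 lower (background 22.6% and 22.4%), led by Derl3, a channel of ER-associated degradation (1.86 ± 0.47), and Ero1lb, an ER oxidase (1.21 ± 0.20). Beside these results, 6 of 8 plasma and B cell markers were lower in WSB and none higher (background 22.4% and 22.6%), and their sum was 2.36 to 18.2 CPM.

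In Cast, the counts rested on 2 of the 7 libraries. With all 7, 10 of 15 ER chaperones, Edem1, the sensors Ern1, Eif2ak3 and Atf6, and Atf4, Ddit3 and Trib3 were called higher, and Hspa1a, Hspa1b, Hspb1 and Dnajb1 lower. Hspa5, the HSP70 of the ER lumen known as BiP, had 2991 CPM in Cast 5 and 1944 CPM in Cast 6, and 1002, 629, 694, 650.4 and 757 CPM in Cast 1, 2, 3, 7 and 8. Creld2, an ER protein with disulfide isomerase activity, had 309.9 and 189.7 CPM in Cast 5 and Cast 6, and 21.4 to 41.6 CPM in the other 5. Sdf2l1, an ER protein that works with DnaJ cochaperones, had 104 and 99.4 CPM in these 2 libraries, and 4.92 to 18.7 CPM in the other 5. The 2 libraries were thus far above the rest of their strain in the 3 genes, and the other 5 lay within the range of the other strains.

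Cast 5 and Cast 6 were the 2 highest libraries of the strain in all 15 ER chaperones. Against the median of the other 5 Cast libraries, Cast 5 was 9.96-fold higher for Creld2, 7.92-fold for Sdf2l1, 4.77-fold for Manf, a secreted ER stress protein, and 4.31-fold for Hspa5, and Cast 6 was 6.09-fold, 7.56-fold, 4.16-fold and 2.80-fold higher for these genes. The median over the 15 was 2.55-fold in Cast 5 and 2.80-fold in Cast 6. The 15 genes summed to 15236 and 13468 CPM in Cast 5 and Cast 6, against 4033 to 5902 CPM in the other 5. Of the 5 genes with a printed promoter, Herpud1 was the exception, at 356 and 229.5 CPM in Cast 5 and Cast 6 within the 204 to 547 CPM of the others. Sdf2l1 has no match to either element in its window. The heat shock genes did not all follow, for Hspa1a had its 2 lowest Cast values in them, at 0.509 and 1.22 CPM, while Hsph1 had its 2 highest, at 234 and 183 CPM.

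Without Cast 5, 7 of the 36 genes were called higher and 5 lower in Cast (background 27.9% and 26.8%). Without Cast 6 they were 12 and 5 (30% and 25.9%). Without both they were 4 and 8 (25.4% and 24.7%), and no ER chaperone remained higher in edgeR, also at an unadjusted p under 0.05. Then Canx, Pdia4, Pdia6 and Dnajc3 were called lower, as were Sel1l, Hspb1, Hsp90aa1 and Dnajb1. The 2 libraries stood out by their levels of these same genes, and leaving out the highest libraries by itself lowers the Cast estimates. The lost higher calls and the lower calls of ER chaperones were thus partly set by that choice. The estimates of Hspa5 (-0.16 ± 0.19, against 0.56 ± 0.19 with all 7), Calr, Pdia3, Dnajb9, Sdf2l1, Manf, Hyou1 and Eif2ak3 changed sign, and none of these 8 was called after the change. Edem1 (0.22 ± 0.07), Ern1 (0.40 ± 0.10), Atf6 (0.45 ± 0.09) and Trib3 (1.16 ± 0.25) were called higher in Cast with and without both libraries.

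**Figure D3:**
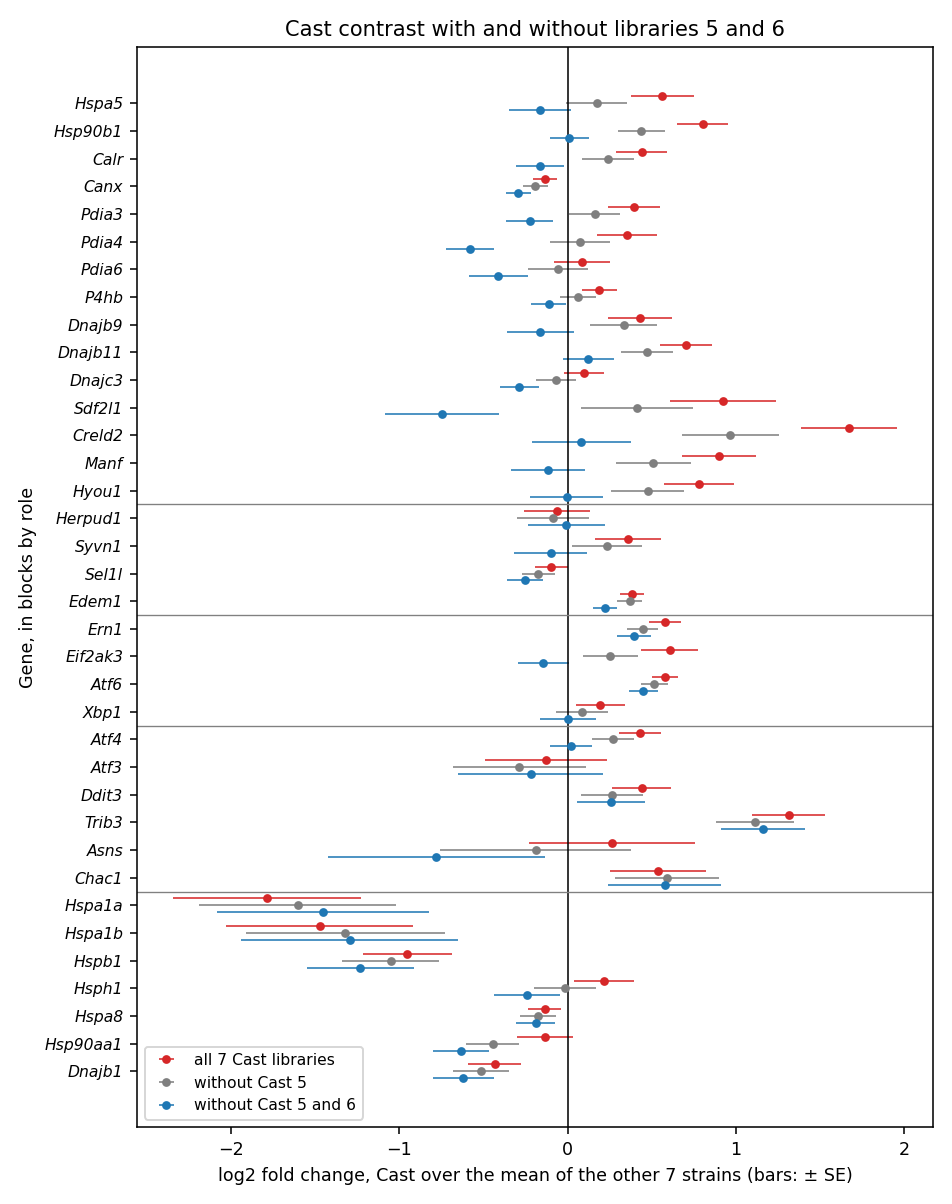
Log2 fold change of Cast over the mean of the other 7 strains with its standard error, for the 36 genes in blocks by role, with all 7 Cast libraries (red), without Cast 5 (grey) and without Cast 5 and 6 (blue). Without the 2 libraries no ER chaperone is called higher, and of those called with all 7 Dnajb11 (0.12), Creld2 (0.08) and Hsp90b1 (0.01) stay above 0, while Ern1, Atf6, Edem1 and Trib3 stay to the right of 0.

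Values of other lists stood beside this. Cirbp and Rbm3 summed to 115 CPM in Cast 5 and 49.6 CPM in Cast 6, against 17.1 to 40.3 CPM in the other 5. The 8 subunits of the cytosolic chaperonin summed to 1328 and 1029.7 CPM, against 813 to 869 CPM. Plasma and B cell markers, a secretory cell type rich in ER chaperones, were 2.39 and 5.31 CPM, against 4.96 to 10.8 CPM, so they were at or below the rest. Of 13 pancreatic acinar markers 2 had a row, Cela1 and Cela2a, and Cast 5 and Cast 6 held 0.0898 and 0.233 CPM of both together. Skeletal muscle markers were at 204 CPM in Cast 6 and 0.449 CPM in Cast 5. Neutrophil markers were at 8.95 and 10.3 CPM, against 0.964 to 1.45 CPM. Stellate cell markers were at 190.0 and 172 CPM in Cast 5 and Cast 6, against 248 to 269.9 CPM in the other 5. T and NK cell markers were at 0.329 and 0.311 CPM, against 0.333 to 9.58 CPM, Kupffer cell markers at 82.7 and 161 CPM, against 159 to 221 CPM, and sinusoidal endothelial markers at 182 and 220.3 CPM, against 217 to 292 CPM. Cholangiocyte markers were at 34.8 and 36.9 CPM, against 22.3 to 33.2 CPM. Of the hepatocyte markers, Cyp2e1 was at 1033 and 1490 CPM in Cast 5 and Cast 6, against a mean of 3080 CPM over all 7. Ttr was at 805 and 933 CPM (mean 1749), and Asgr1 at 116 and 183 CPM (mean 260). Apoa1 and Hnf4a were also below the Cast mean in both, Tat was above it at 5653 and 6023 CPM (mean 4271), and Alb and Cps1 lay on either side. For Hnf4a, Cast 6 at 671 CPM was close to the mean of 682 CPM. These means include Cast 5 and Cast 6 themselves, unlike the ranges of the other 5. Where both libraries lie on the same side, the means understate the gap from the other 5. The part of these cells in the result was not tested. Both libraries were of low Xist, as were Cast 7 and Cast 8. Over all 7 Cast libraries, 7 of 8 Kupffer cell, 6 of 8 T and NK cell, 4 of 7 stellate cell and 4 of 6 sinusoidal endothelial markers were called lower, against 1, 0, 2 and 1 called higher in that order, and none of the 4 adipocyte markers had a row. Of 6 cholangiocyte markers and of 13 clock genes, 1 each was higher and 1 each lower in Cast. Over all genes tested, 30.8% were called higher and 28.8% lower there.

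**Figure D4:**
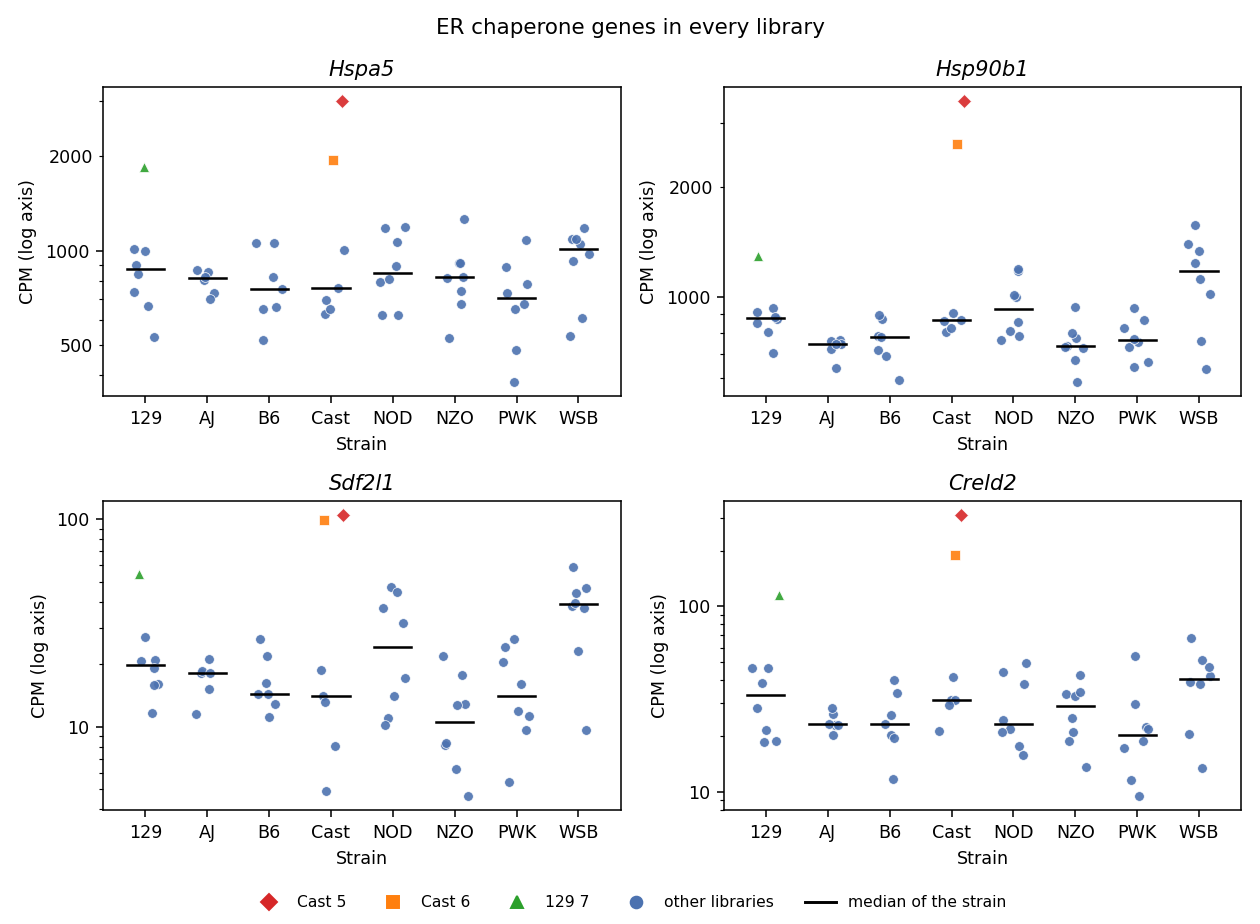
CPM on a log axis of the ER chaperone genes Hspa5, Hsp90b1, Sdf2l1 and Creld2 in every library, by strain, with a line at the median of the strain. Cast 5 and Cast 6 lie far above the other Cast libraries, 2991 and 1944 CPM for Hspa5 against at most 1002 CPM, while the Cast median lies among those of the other strains.

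By mean log2 level, Hspa5 was 1238 ± 901 CPM in Cast, 931 ± 235 in WSB, 941 ± 403 in strain-129, 897 ± 228 in NOD, 835 ± 216 in NZO, 797 ± 66.5 in AJ, 788 ± 205 in B6 and 708 ± 219 in PWK, and no step between neighbours was called. In tests of pairs with all libraries, Hspa5 was called higher in Cast than in 4 of the 7 other strains. Sdf2l1 was 37.2 ± 15.0 CPM in WSB, 26.6 ± 15.3 in NOD, 23.2 ± 13.4 in strain-129, 37.5 ± 44.2 in Cast, 17.1 ± 3.35 in AJ, 16.7 ± 5.44 in B6, 15.7 ± 7.42 in PWK and 11.6 ± 5.93 in NZO. In that order Cast over AJ was the only called step (adjusted p = 0.0451). Creld2 was 93.5 ± 112 CPM in Cast, 39.9 ± 17.0 in WSB, 41.8 ± 32.1 in strain-129, 29.1 ± 13.05 in NOD, 27.7 ± 9.73 in NZO, 24.0 ± 2.90 in AJ, 25.01 ± 9.53 in B6 and 23.1 ± 14.1 in PWK, with Cast over WSB the only called step (adjusted p = 0.0141). Without Cast 5 and Cast 6, neither gene was called in Cast, where the mean of the other 5 libraries was 30.98 CPM for Creld2 and 11.8 CPM for Sdf2l1.

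NZO was lower in part of every role group. Of the ER chaperones, 6 of 15 were called lower, Sdf2l1 (-1.02 ± 0.35), Pdia6 (-0.66 ± 0.17), Pdia3 (-0.54 ± 0.15), Calr (-0.47 ± 0.16), Dnajb11 (-0.47 ± 0.16) and Dnajc3 (-0.35 ± 0.12). Hspa5 was not called, at 526 to 1263 CPM. The contrasts of NZO and WSB share libraries, since each strain enters the mean against which the other is set. The 8 NZO libraries of Pdia6 held 158 to 259 CPM, against a WSB minimum of 283 CPM, so these 2 strains did not overlap. In tests of pairs, Pdia6 was lower in NZO than in 6 of the 7 other strains, and Calr and Pdia3 than in 4.

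Herpud1, a membrane protein of ER-associated degradation, had 128 to 282 CPM in NZO, with a median of 206 CPM, all 8 libraries below the mean of the others, and was lower by -0.78 ± 0.20 (adjusted p = 0.000900). It was lower in NZO than in 6 of the 7 other strains. By mean log2 level it was 449.8 ± 97.3 CPM in AJ, 347 ± 52.4 in WSB, 393 ± 196 in PWK, 353 ± 94.6 in NOD, 359 ± 132 in strain-129, 322 ± 118 in Cast, 305 ± 99.0 in B6 and 209 ± 60.5 in NZO, with no called step between neighbours. Syvn1, the ubiquitin ligase HRD1, was 117 ± 58.2 CPM in Cast, 104 ± 26.4 in WSB, 113 ± 68.4 in strain-129, 96.1 ± 27.1 in NOD, 88.0 ± 7.52 in AJ, 82.7 ± 23.6 in B6, 83.4 ± 29.9 in NZO and 79.2 ± 31.7 in PWK, and was called in no strain. Sel1l, the partner of HRD1, was called in none either, and Edem1, which targets misfolded glycoproteins, was higher in Cast and lower in PWK (-0.20 ± 0.07).

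NZO was further lower in Hspb1, Dnajb1 (-0.68 ± 0.15), Hsph1 (-0.59 ± 0.18), Trib3 (-0.71 ± 0.25), Chac1 (-0.81 ± 0.31) and Ern1 (-0.24 ± 0.10), and higher in Atf3 (0.99 ± 0.31) and Ddit3 (0.41 ± 0.17). Of the 8 chaperonin subunits, 7 were called lower in NZO and none higher (background of all genes 19.5% and 26.7%). Of 52 further ER genes, 14 were lower and 3 higher (the same background), led by Derl3 (-2.62 ± 0.71). Beside this, 7 of 8 plasma and B cell markers and 7 of 8 Kupffer cell and macrophage markers were called higher in NZO (background 26.7%), and 5 of 8 hepatocyte markers lower (19.5%). One NZO library summed to 1341 CPM of neutrophil markers, where the median of the strain was 3.22 CPM. The part of these cells in the result was not tested.

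The sensors differed among strains in their own order. Ern1 was 147 ± 38.6 CPM in Cast, 127 ± 19.1 in WSB, 123 ± 21.5 in PWK, 107 ± 26.7 in strain-129, 95.2 ± 10.1 in AJ, 91.1 ± 17.2 in NOD, 89.8 ± 9.33 in NZO and 69.4 ± 5.96 in B6. NZO over B6 was the only called step (adjusted p = 0.0275), and B6, with 58.0 to 74.6 CPM in 7 libraries, was lower than the mean of the others by -0.66 ± 0.10. PWK was higher by 0.28 ± 0.09. Atf6 was 113 ± 35.1 CPM in Cast, 93.8 ± 11.2 in B6, 86.8 ± 6.74 in NZO, 81.0 ± 5.18 in AJ, 71.9 ± 5.003 in WSB, 70.1 ± 11.1 in strain-129, 66.8 ± 6.62 in PWK and 61.8 ± 4.23 in NOD. Cast over B6 was its only called step (adjusted p = 0.0334), and Atf6 was higher in B6 (0.28 ± 0.08) and lower in NOD (-0.41 ± 0.08) and PWK (-0.28 ± 0.08). B6 thus had the lowest level of Ern1 and the next to highest of Atf6.

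Xbp1, whose RNA is spliced by IRE1, was 189.6 ± 84.9 CPM in WSB, 166 ± 16.1 in PWK, 166 ± 58.3 in Cast, 137 ± 14.3 in B6, 142 ± 57.5 in strain-129, 135 ± 26.2 in NOD, 134 ± 29.3 in NZO and 125.4 ± 22.2 in AJ, with no called step. Counts per gene do not separate its spliced from its unspliced form. Eif2ak3, the kinase PERK, was called higher in Cast with all libraries (0.61 ± 0.17), at 76.1 and 57.5 CPM in Cast 5 and Cast 6, against 12.3 to 28.5 CPM in the other 5. No other strain was called for it.

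Of the 6 integrated stress response genes, no more than 3 were called in one direction in any strain. The factor Atf4 was called in Cast alone of the 8 contrasts (0.43 ± 0.12), and not without Cast 5 and Cast 6 (0.02 ± 0.12). Ddit3, the factor CHOP, was 6.20 ± 1.81 CPM in NZO, 6.31 ± 4.18 in Cast, 4.90 ± 1.09 in B6, 5.07 ± 2.42 in strain-129, 4.71 ± 0.750 in WSB, 4.33 ± 0.922 in AJ, 4.28 ± 0.637 in NOD and 3.51 ± 0.813 in PWK, with no called step, and was lower in PWK by -0.53 ± 0.18. Atf3 was higher in B6 (1.26 ± 0.32) and NZO and lower in WSB (-0.90 ± 0.37).

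Trib3, a pseudokinase that ATF4 and CHOP induce, had opposite calls in several strains. It was higher in AJ (1.23 ± 0.23) and Cast (1.31 ± 0.22) and lower in NZO and WSB (-1.35 ± 0.26). AJ libraries held 12.6 to 18.8 CPM, with a median of 15.3 CPM, and WSB libraries 0.998 to 5.07 CPM, with a median of 3.46 CPM, so these strains did not overlap. By mean log2 level it was 15.7 ± 2.26 CPM in AJ, 16.6 ± 8.59 in Cast, 8.94 ± 4.69 in PWK, 6.72 ± 1.35 in NOD, 7.31 ± 3.52 in strain-129, 5.36 ± 1.72 in B6, 4.87 ± 2.48 in NZO and 3.29 ± 1.17 in WSB. Cast over PWK was the only called step (adjusted p = 0.0141). Without Cast 5 and Cast 6, Trib3 in Cast was 9.60 to 28.5 CPM and its call held.

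Asns, asparagine synthetase, which ATF4 induces when amino acids run short, was among the genes with the widest spread. It was lower in AJ (-2.25 ± 0.70) and NOD (-2.47 ± 0.64) and higher in PWK (1.21 ± 0.44) and WSB (1.57 ± 0.43). Its levels were low throughout, 1.71 ± 0.486 CPM in PWK, 1.48 ± 0.582 in strain-129, 2.15 ± 2.11 in WSB, 0.952 ± 0.870 in Cast, 1.52 ± 3.07 in NZO, 0.675 ± 0.669 in B6, 0.208 ± 0.121 in AJ and 0.184 ± 0.0860 in NOD by mean log2 level, with no called step. AJ libraries held 3 to 12 reads of it and NOD libraries 2 to 8, so single values there carry large counting error. In WSB, the 4 libraries of low Xist held 2.45 to 5.14 CPM, against 0.153 to 0.472 CPM in the 4 of high Xist, so the mean of the strain describes neither. The split was not particular to WSB. Low Xist libraries also lay above those of high Xist, without overlap, in strain-129, B6, NOD and NZO. Library NZO 8, one of low Xist, was the highest of all 60 at 9.10 CPM, where the median of NZO was 0.425 CPM.

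**Figure D5:**
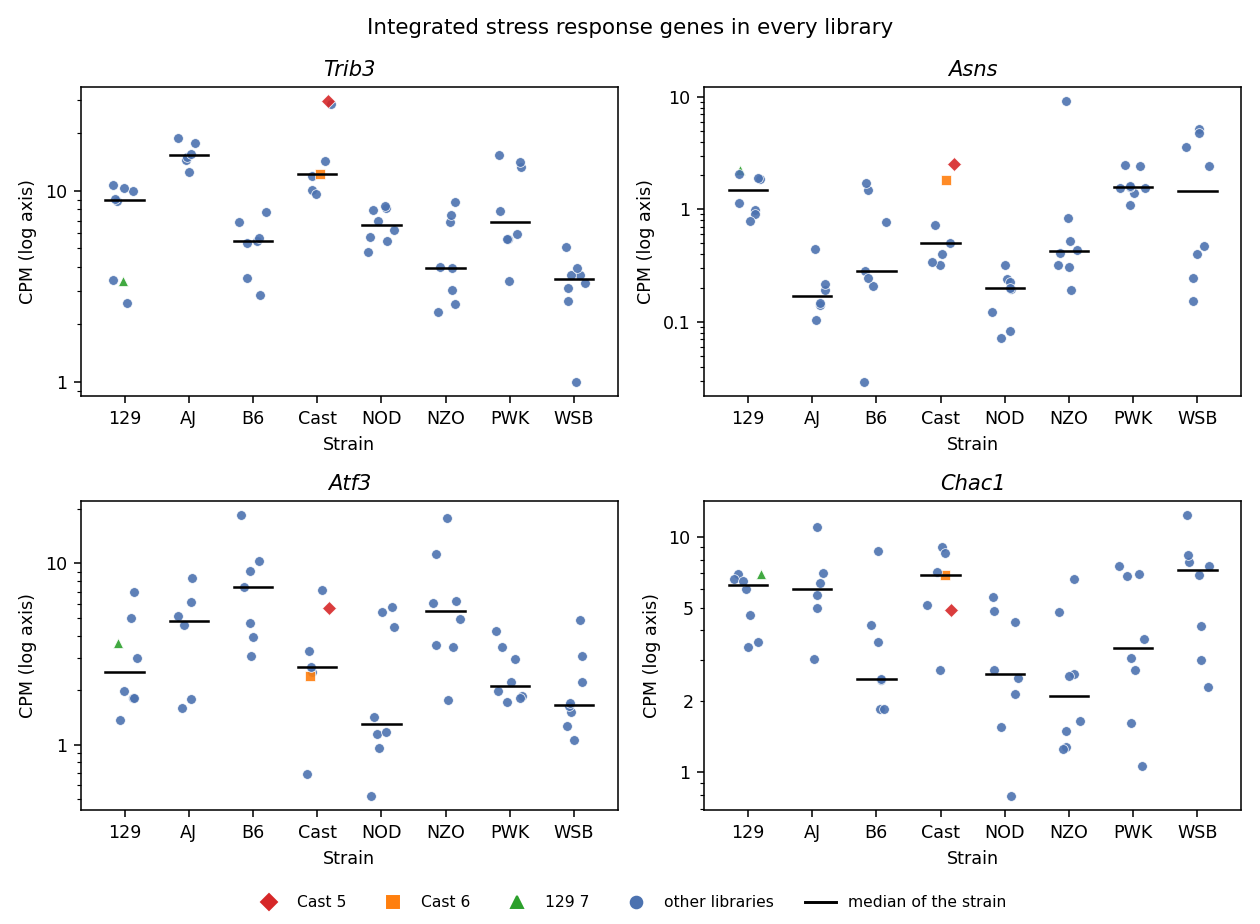
CPM on a log axis of Trib3, Asns, Atf3 and Chac1 in every library, by strain, with a line at the median of the strain. Trib3 is highest in AJ and Cast and lowest in WSB, and Asns falls into a low and a high set of 4 libraries each in WSB. Low and high Xist libraries, not marked here, were also apart for Asns in strain-129, B6, NOD and NZO.

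Chac1, which degrades glutathione, was called in NZO alone. In a further list of ATF4 and integrated stress response genes with 33 tested, 20 were higher and 6 lower in Cast, 11 higher and 1 lower in NZO, and 3 higher and 12 lower in WSB. The background of all genes called higher and lower was 30.8% and 28.8% in Cast, 26.7% and 19.5% in NZO, and 22.6% and 22.4% in WSB. In Cast the genes of this list called higher include Ddit4 (2.81 ± 0.33), an inhibitor of the kinase complex mTORC1, at 92.3 ± 95.4 CPM, and the stress hormone Gdf15 was lower (-2.82 ± 0.46). Without Cast 5 and Cast 6, Ddit4 was still called, at 2.05, and the counts in Cast were 11 higher and 5 lower (background 25.4% and 24.7%). In NZO, Aldh18a1 and Vldlr were higher, by 2.84 ± 0.16 and 2.71 ± 0.39. In WSB, Vldlr, a lipoprotein receptor, and the hormone Fgf21 were lower, by -1.73 ± 0.56 and -1.70 ± 0.48.

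The remaining strains had few calls. B6 was lower in Pdia6 (-0.75 ± 0.18), Hsph1 (-0.54 ± 0.19) and Hsp90aa1 (-0.52 ± 0.17) beside the calls above. PWK was lower in Canx, the membrane lectin calnexin (-0.32 ± 0.07), and P4hb, protein disulfide isomerase (-0.25 ± 0.10), and higher in Hspa1b (1.14 ± 0.42). NOD was higher in Canx (0.21 ± 0.07), and AJ lower in Hspa8 (-0.30 ± 0.11). In strain-129, library 7 had the highest level of its strain in 29 of the 36 genes and in all 15 ER chaperones and all 7 heat shock genes. Without it, Hspa1a (-1.41 ± 0.48) and Hspb1 (-0.69 ± 0.25) were called lower in strain-129 (background 9.38%) and none higher (12.7%). Library 7 stood out by its high levels of these same genes, and leaving it out by itself lowers the strain-129 estimates. These lower calls were thus partly set by that choice.

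Within strains, 4 pairs of genes were correlated over the 6 to 8 libraries on log2 CPM, 32 relations in all, each with an exact two-sided permutation test and p-values adjusted over the 32. Hspa5 and Sdf2l1 rose and fell together, with Pearson's r of 0.70 to 0.97 and an adjusted p under the threshold in 6 of 8 strains, while Spearman's rho passed in NOD and PWK only (adjusted exact p = 0.0357 and 0.0127). In strain-129, r was 0.97 (exact p = 0.000546, adjusted 0.0151, Spearman's rho 0.83 with exact p = 0.0154, adjusted 0.0703), and 0.79 without the 2 farthest libraries. In PWK, r was 0.85 (exact p = 0.00672, adjusted 0.0307, rho 0.98 with exact p = 0.000397, adjusted 0.0127), and 0.99 without them. In Cast, r was 0.87 (exact p = 0.0298, adjusted 0.0866, rho 0.64 with exact p = 0.139, adjusted 0.278) and -0.12 without the 2 farthest, so it rests on Cast 5 and Cast 6. Without the 2 farthest, r was 0.51 in AJ, 0.54 in NZO, 0.58 in WSB, 0.75 in NOD and 0.89 in B6. In NOD and PWK, where rho passed, libraries of low and high Xist did not overlap for either gene. There r over all libraries also holds the difference between these 2 sets, and the relation within each set was not tested. Hsph1 and Dnajb1 passed in 2 of 8 strains, strain-129 and PWK, and by rho in strain-129 (adjusted exact p = 0.0487) but not in PWK (0.0656). In PWK, libraries of low and high Xist did not overlap for either of these genes. The r of PWK thus also holds the difference between these 2 sets. Hspa5 and Hsph1, of the ER and the cytosol, passed in none, with r of -0.10 to 0.82, and neither did Trib3 and Asns, with r of -0.51 to 0.60.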

How the data were processed

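Liver RNA-seq libraries of 8 mouse strains were analysed from the deposited tables. The authors deposited a table of unnormalised estimated counts, of which 20.96% were not whole. The tests had been planned for whole counts, so values were rounded first. The authors also deposited log2-scale values after a variance-stabilising transformation, used as an alternative, and a table of gene positions, per the file headers. Per the submitters' processing notes, the build was GRCm38 and DESeq2 was used. The aligner, the counting tool and the use of strand were not given in the sources used here. Of 61 labelled samples, 60 had a column, and 1 further column, which fits no label, was left out. The total of each library sets the precision, and reads are not independent molecules, so read numbers describe counting error only. No pair of libraries of a strain differed by as little as sampling noise.

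Counts were scaled by TMM and tested with edgeR 4.0.16 under R 4.3.3 (filterByExpr by strain, then glmQLFTest) in a model with strain as the only factor. Standard errors were obtained as |log2 fold change| over the root of F. Levels are TMM-scaled CPM, as mean ± SD over libraries, and logs used a prior count of 2. Correlations used exact permutation tests. Alternatives were RLE scaling, no scaling, no filter, DESeq2 1.42.0, limma 3.58.1 on the deposited log2 values, a replicate block, Xist as a covariate, exclusion of Rn18s-rs5 and exclusion of Cast 5. Exclusion of Cast 6, of Cast 5 and 6, of library 7 of strain-129 and of all 3 was added after seeing the data. The genes and lists were chosen with earlier results of these data known. By the rule for named genes, levels in every strain are given for the 2 genes of each role with the widest range of strain means and for Hspa5, Xbp1, Ddit3 and Hspa1a. Called genes with an absolute log2 fold change of at least 0.5 are named, up to 6 a direction and strain, and from further lists up to 3 called genes a strain with the largest change. The further lists were 52 ER genes, 34 ATF4 and integrated stress response genes, 35 heat shock genes, chaperonin, immediate early, clock and cold-inducible genes, and markers of 11 cell types.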

Additional observations from a re-analysis of the deposited data

Results flagged for a closer look

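The levels of the 36 genes were screened in each strain for a library far from the others on log2 CPM, 288 groups in all, of which 19 were marked, where chance marks about 1 in 20. The screen set the gap between the most extreme library and its nearest neighbour against the range of the strain. Where 2 libraries are both high, each can thus hide the other. No Cast library was marked, although Cast 5 and Cast 6 held 2991 and 1944 CPM of Hspa5. The other Cast libraries held at most 1002 CPM. The screen therefore cannot show that no Cast library stood apart. Library 7 of strain-129 was the highest of its strain in 8 of the 19, with 1298 CPM of Hsp90b1, 411 CPM of Pdia4, 281 CPM of Xbp1, 29.3 CPM of Hspa1a, 270.02 CPM of Hspa1b, 263 CPM of Hsph1, 583 CPM of Hsp90aa1 and 77.9 CPM of Dnajb1. Library 3 of that strain was the lowest for Canx, at 328 CPM. In AJ, library 8 was the lowest for Hsp90b1, at 641 CPM, and library 6 the highest for Dnajb11, at 86.2 CPM. In B6, library 2 was the lowest for Canx, at 309 CPM, and library 7 the lowest for Pdia4, at 142 CPM, and for Hsph1, at 47.3 CPM. In WSB, library 6 was the highest for Xbp1, at 384 CPM, and the lowest for Trib3, at 0.998 CPM, and library 9 the lowest for Pdia6, at 283 CPM. NZO 8 was the highest for Asns, at 9.10 CPM, and PWK 6 the lowest for Hspa8, at 942 CPM.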

How the results depend on the processing

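Of the 83 calls of a gene in a strain, 54 held their direction and call under all 13 alternatives. DESeq2 and the exclusion of Rn18s-rs5 changed none, and limma on the deposited log2 values ended 13. The 21 calls in Cast were 12 to 22 with single libraries left out, lowest without Cast 5 and highest without library 7 of strain-129, 12 without Cast 5 and 6, with or without library 7 of strain-129, and 13 with limma. The 10 ER chaperones higher in Cast became 3 without Cast 5, 5 without Cast 6, 0 without both, 0 also without library 7 of strain-129, and 5 with limma. Among these, none was higher at an unadjusted p under 0.05 without both. Cast 5 and Cast 6 were the highest Cast libraries in these genes, so the fall was partly set by leaving them out. Estimates that turned negative in Cast without both were -0.16 for Hspa5, -0.16 for Calr, -0.23 for Pdia3, -0.16 for Dnajb9, -0.75 for Sdf2l1, -0.12 for Manf, -0.0065 for Hyou1 and -0.14 for Eif2ak3. With library 7 of strain-129 left out as well they were -0.13 for Hspa5, -0.16 for Calr, -0.21 for Pdia3, -0.13 for Dnajb9, -0.70 for Sdf2l1, -0.084 for Manf and -0.14 for Eif2ak3. The cause was not tested. The 7 ER chaperones higher in WSB became 11 without Cast 5, Cast 6 and library 7 of strain-129. These libraries were high in the same genes, so leaving them out lowers the mean against which WSB is set. The rise was thus partly set by that choice, and the background of all genes for it is not given here. With Xist as a covariate AJ had 8 calls, where it had 5. The single call in strain-129 became 2 without Cast 5, without Cast 6, without library 7 of strain-129, without all 3, without scaling, with DESeq2, with limma or without Rn18s-rs5, 3 without Cast 5 and 6, 4 with the Xist covariate and 0 with no filter in edgeR, where 3 genes were higher and 2 lower at an unadjusted p under 0.05. With the replicate number as a block, strain-129 had 3 calls and 5 ER chaperones were higher in Cast, and 28 of the 36 genes differed among strains. The block ended 10 of the 83 calls. The 181 pairs of libraries of different strains with the same number had a median correlation of their deviations from the strain mean of 0.20, against -0.07 for different numbers. Of the same-number pairs 72.4% were above 0.1, short of all of them, so the numbers were not taken as pairs, and 7 of 60 libraries correlated best with one of their own number. Libraries numbered 1 to 4 were of high Xist and those of higher number of low Xist, except PWK 3, PWK 4, PWK 6, PWK 7 and WSB 9. The number and the Xist set thus largely coincide, and neither these correlations nor the block separates them. Depth limits Asns most, at 1 to 288 reads a library.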
